A study of Mus musculus with 30 samples.

Results

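Epithelial cells re-sorted from lung organoid co-cultures after 72 hours with an exacerbation cocktail (EC) were compared with epithelial cells from vehicle-exposed cultures of the same mice, across all genes counted. The comparison takes the samples labelled as CD45-/CD31-/Epcam+ cells with the treatment EC or Vehicle, which are 8 of the 30 samples of the series. There were 4 EC and 4 vehicle libraries, 1 of each from each of 4 mice. All cultures started from 300000 lung cells of wild type C57BL/6J mice older than 8 weeks, of either sex, selected as CD31-/CD45-/Epcam+. They shared the Matrigel with 300000 fibroblasts of the mouse lung line CCL206, kept from dividing by mitomycin C, and the medium of both groups held the ROCK inhibitor Y-27632. EC combined IL-1β and IL-6 (300 pg/ml each), TNF-α (200 pg/ml) and KC (20 ng/ml), a mouse chemokine that serves as counterpart of IL-8, and the sample labels list IL-8 where the methods list KC. After exposure, Epcam microbeads parted the cultures into an Epcam+ fraction (epithelial libraries) and an Epcam- fraction (fibroblast libraries), and each was sequenced in bulk. The epithelial cells therefore came from a mixed culture in which the cocktail reached both cell types.

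The cocktail mimics cytokines of an acute exacerbation of chronic obstructive pulmonary disease. IL-1β and TNF-α act through receptors that release the transcription factor NF-κB from its inhibitors, whereas IL-6 acts through a receptor complex with Il6st that activates STAT3. In airway and alveolar epithelium these routes are known for the induction of chemokines, acute phase proteins and antimicrobial proteins, and the same cells carry out salt and water transport, lipid secretion and detoxification.

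Of 17789 genes tested, 830 (4.67%) differed between EC and vehicle at an adjusted p under 0.05 and are called DEGs here. They comprised 349 genes higher in EC (1.96% of those tested) and 481 lower (2.7%), and 816 of the 830 moved in the same direction in 4 of 4 mice. The test compared EC with vehicle within mice and so favours such genes, and the count of 816 is no independent evidence. The log2 fold change exceeded 1 in 153 of the higher DEGs and was below -1 in 128 of the lower DEGs. The median log2 fold change of all genes tested was -0.0090. Single mice weighed on the count, which was 553 without mouse 1, 531 without mouse 3 and 1522 without mouse 4. Without the mouse as a block it was 308. Of the 830 DEGs, 197 (93 higher and 104 lower) were called in the main test and in all 14 alternatives to it. In the text below, a gene given as higher or lower without a remark on its call belongs to these 197. Levels are given in counts per 1000000 reads (CPM, scaled for library composition) in the order of mouse 1, 2, 3 and 4, with the vehicle libraries first. A single value beside an adjusted p is a log2 fold change of EC against vehicle. Counts of called genes in a gene list stand beside the 1.96% higher and 2.7% lower of all genes tested. Libraries of the 4 mice are the only replicates. Where the groups of a DEG are said not to overlap, this describes a gene chosen by its call and is no further evidence. The SE of a gene comes from the edgeR fit. It combines the gene's own spread between mice with spread estimated over all genes tested.

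**Figure D1:**
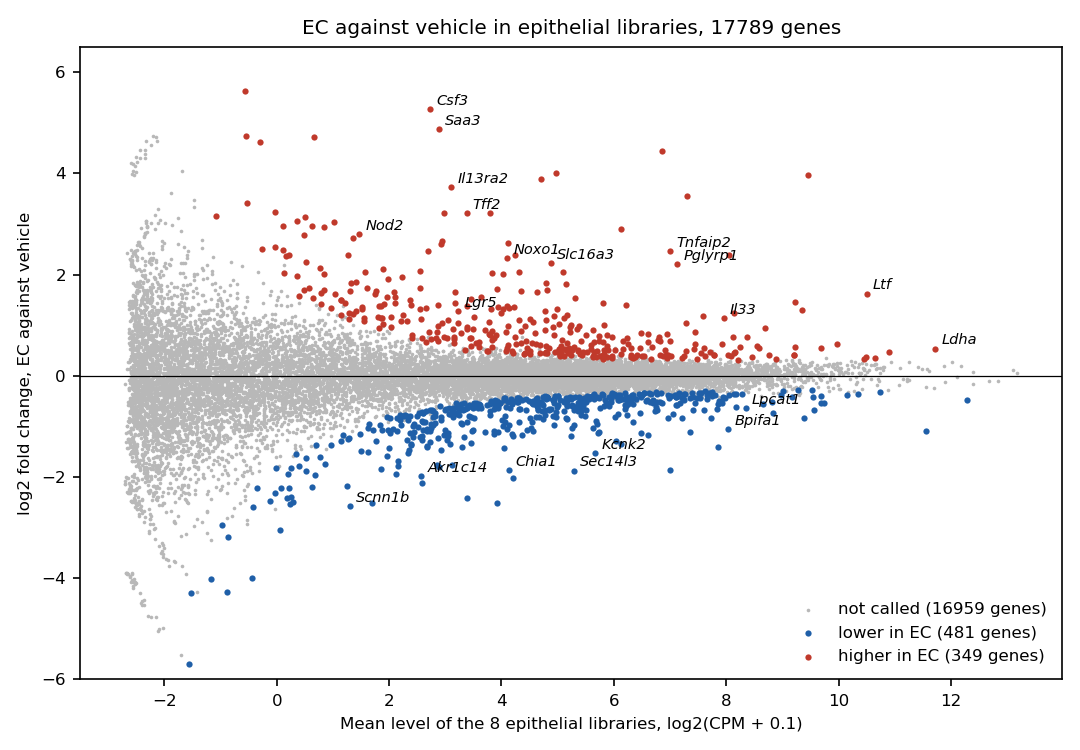
Each point is 1 of the 17789 genes tested, with its mean level over the 8 epithelial libraries, log2(CPM + 0.1), on the horizontal axis and its log2 fold change (EC against vehicle, edgeR) on the vertical axis. The 349 higher DEGs are red, the 481 lower DEGs are blue, with Csf3 at 5.27 and Saa3 at 4.88 among the largest changes on the higher side.

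Total counts ran from 12402492 to 20317181 in the vehicle and from 11562140.0 to 17467462 in the EC libraries. The labelled cell type was checked first. Epcam was measured at 211, 213, 212 and 222 CPM in the vehicle libraries and at 232, 229.7, 258 and 316 CPM in the EC libraries (log2 fold change 0.26, not called, adjusted p = 0.145). All 20 epithelial marker genes had reads in every epithelial library. Of these 20, 2 were higher and 3 lower in EC. Their summed level was lower with EC in 4 of 4 mice and did not overlap, at 26752, 26972, 32961 and 26982 CPM with vehicle against 21315, 21533, 23770.0 and 26064 CPM. The endothelial marker Pecam1 had 0.267, 0, 0.0496 and 0.403 CPM with vehicle and 0, 0.142, 0.0579 and 0.0917 CPM with EC, and the leukocyte marker Ptprc had 0.333, 0, 0 and 0 and 0, 0.214, 0 and 0.0917 CPM. Over 25 leukocyte markers, 12 to 16 had no read in a library, and their summed level ran from 164 to 184 CPM in vehicle and from 185 to 239.6 CPM in EC libraries. Of the 11 leukocyte markers tested, 2 were higher, namely Mrc1, at a log2 fold change of 1.66 (adjusted p = 1.3e-04), and Rac2, with 0.75 (adjusted p = 0.0367), a call that ended without mouse 1, 2 or 3 and with subtraction, at 0.80 (adjusted p = 0.195). Of the 10 endothelial markers tested, 0 were called by edgeR and 0 by DESeq2, while 2 had an unadjusted p under 0.05. In bulk libraries, fewer cells of a type and less RNA per cell cannot be told apart.

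The epithelial libraries also held reads of fibroblast markers. RNA of the co-cultured fibroblasts and expression of these markers in the sorted epithelial cells cannot be told apart in bulk libraries. If all such reads came from fibroblasts, their share can be estimated. It was taken as the median ratio of CPM to the fibroblast library of the same culture, over fibroblast markers with at least 50 CPM in the latter. The share was 9.61, 5.19, 4.34 and 4.82% in vehicle libraries and 17.1, 13.2, 5.30 and 11.6% in EC libraries of mice 1 to 4. In 4 of 4 mice the EC library had the larger share, by 5.84 ± 3.29 percentage points (SD, n = 4 mice; exact two-sided sign-flip test, p = 0.125, the smallest that 4 pairs allow). The summed level of 31 fibroblast markers overlapped between the groups. It was 3270, 2240.1, 2546 and 2755 CPM with vehicle and 2791, 3255, 1977 and 2543 CPM with EC. With EC it was thus lower in mice 1, 3 and 4 and higher in mouse 2. The ratio is taken to the fibroblast libraries. There the sum was 23035 and 12861 CPM (vehicle and EC) in mouse 1, 27488 and 22448 in mouse 3, and 27686 and 17137 in mouse 4. The part of this fall in the larger share was not tested. The fibroblast libraries in turn held reads of epithelial markers, with a summed level of 20 epithelial markers of 6853 to 10987 CPM with vehicle and 10496 to 16020.0 CPM in EC. Of the 349 higher DEGs, 205 had a higher level in fibroblast than in epithelial vehicle libraries, as had 113 of the 481 lower DEGs and 8483 of all 17789 genes tested. After subtraction of the share from the counts, 253 genes were called, and 247 of them (116 higher and 131 lower) were among the 830. Of 826 DEGs fitted after subtraction, 804 kept their sign, and a call that ended there did not always have a smaller fold change. The fibroblast vehicle library of mouse 2 was not analysed here, and the mean of the other vehicle libraries stood in for it. For the genes named below, the fold change after subtraction is given where a call ended, and the part of fibroblast RNA in these results was not tested beyond it. For some of them the estimated fibroblast part exceeds the measured level. The estimate is too high for these genes, and their values after subtraction are uncertain.

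The receptors of IL-1β, IL-6 and TNF-α were detected, and no receptor of the cocktail was called. Il1r1, the signalling receptor of IL-1β, had 51.1, 49.1, 46.4 and 58.7 CPM with vehicle and 51.9, 49.8, 56.6 and 48.8 CPM with EC, a log2 fold change of 0.019 ± 0.11 (SE), adjusted p = 0.966. Its partner Il1rap had a log2 fold change of -0.0096 (adjusted p = 0.989). Il6ra and Il6st, the chains of the IL-6 receptor, had -0.14 (adjusted p = 0.798) and 0.00083 (adjusted p = 0.998), and the TNF-α receptors Tnfrsf1a and Tnfrsf1b had 0.11 (adjusted p = 0.665) and 0.27 (adjusted p = 0.113). The KC receptor Cxcr2 lay between 0 and 0.298 CPM in the 8 libraries, with its vehicle and EC values overlapping. Cxcr1 and Il1r2 did not reach the minimum count.

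Of 34 tested genes of the NF-κB pathway and its feedback, 9 were higher in EC and 0 lower, and the median log2 fold change was 0.11. After subtraction of the fibroblast share, 5 of these 9 were still called. Tnfaip2, a gene induced by TNF-α, had 43.5, 38.5, 35.5 and 32.2 CPM with vehicle and 277, 306, 181 and 114 CPM with EC. Every EC library lay above every vehicle library, with the smallest rise in mouse 4, and the log2 fold change was 2.47 (0.14 SE, adjusted p = 7.3e-09). Zc3h12a, which encodes a ribonuclease that degrades cytokine mRNA, had 9.67, 12.9, 14.6 and 15.9 CPM with vehicle and 59.8, 63.3, 59.02 and 37.2 CPM with EC, a log2 fold change of 2.04 ± 0.17 (SE), adjusted p = 5.7e-07. Tnip3, which encodes a binding partner of the NF-κB inhibitor A20, went from 115, 102, 124 and 126 CPM to 235, 218, 300.5 and 319 CPM, a log2 fold change of 1.19 ± 0.09 (SE), adjusted p = 2.0e-07. The groups did not overlap in either gene. The kinase gene Ikbke had a log2 fold change of 1.00 (adjusted p = 1.2e-05). Nfkb1, which encodes a subunit of NF-κB, had a smaller change of 0.42 (adjusted p = 0.00666) and was not called without mouse 1 or mouse 3. The other subunits are not reported here. Cebpd, the transcription factor C/EBPδ of the acute phase response, had 8.07, 9.05, 13.1 and 8.69 CPM with vehicle and 30.9, 35.9, 28.9 and 27.5 CPM with EC, a log2 fold change of 1.67 ± 0.15 (SE), adjusted p = 1.3e-06. Neurl3, a ubiquitin ligase gene, had 12.7, 11.8, 11.2 and 11.99 CPM and 41.02, 37.8, 37.96 and 32.3 CPM, a log2 fold change of 1.65 ± 0.12 (SE), adjusted p = 7.7e-08.

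The promoters of 5 of the most strongly called higher genes are shown because they carry a κB-type motif, the kind of sequence that NF-κB binds. They are the higher genes named by the rules on the smallest adjusted p and the largest change, in order of adjusted p, whose RefSeq window of 250 bases before to 50 after the start site holds GGNNTTTCC on either strand. Capitals mark each match, and the strand given is that of the gene.
Pglyrp1, GRCm38.p6, chr7:18884440-18884739, plus strand: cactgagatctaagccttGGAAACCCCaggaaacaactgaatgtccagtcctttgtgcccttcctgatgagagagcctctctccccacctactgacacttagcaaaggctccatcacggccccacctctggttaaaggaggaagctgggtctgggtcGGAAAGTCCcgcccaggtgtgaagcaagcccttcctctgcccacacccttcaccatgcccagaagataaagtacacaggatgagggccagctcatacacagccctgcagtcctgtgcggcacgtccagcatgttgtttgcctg
Tnfaip2, GRCm38.p6, chr12:111442411-111442710, plus strand: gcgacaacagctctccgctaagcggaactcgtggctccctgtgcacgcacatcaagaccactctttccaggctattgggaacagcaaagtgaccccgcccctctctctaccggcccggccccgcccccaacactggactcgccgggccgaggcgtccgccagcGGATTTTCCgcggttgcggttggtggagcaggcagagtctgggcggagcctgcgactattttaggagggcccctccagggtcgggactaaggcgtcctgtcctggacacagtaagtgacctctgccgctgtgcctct
Saa3, GRCm38.p6, chr7:46715627-46715926, minus strand: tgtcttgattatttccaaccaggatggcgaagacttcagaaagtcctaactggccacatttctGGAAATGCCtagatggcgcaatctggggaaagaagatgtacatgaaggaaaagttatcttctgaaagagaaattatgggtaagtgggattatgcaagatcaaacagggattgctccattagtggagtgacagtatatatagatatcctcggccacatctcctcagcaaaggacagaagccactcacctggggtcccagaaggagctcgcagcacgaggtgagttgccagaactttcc
Neurl3, GRCm38.p6, chr1:36273376-36273675, minus strand: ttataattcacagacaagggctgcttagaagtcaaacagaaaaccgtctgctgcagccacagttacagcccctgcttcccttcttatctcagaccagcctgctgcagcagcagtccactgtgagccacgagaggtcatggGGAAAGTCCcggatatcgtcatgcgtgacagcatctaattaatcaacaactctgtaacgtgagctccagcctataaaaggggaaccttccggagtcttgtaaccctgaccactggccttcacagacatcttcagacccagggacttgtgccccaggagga
Tnip3, GRCm38.p6, chr6:65590148-65590447, plus strand: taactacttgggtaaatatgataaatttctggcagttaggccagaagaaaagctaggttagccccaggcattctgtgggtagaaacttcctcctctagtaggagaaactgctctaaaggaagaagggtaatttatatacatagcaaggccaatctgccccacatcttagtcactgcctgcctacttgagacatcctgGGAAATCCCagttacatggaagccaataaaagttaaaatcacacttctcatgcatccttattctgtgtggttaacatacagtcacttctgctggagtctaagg
The Pglyrp1 window held 2 matches, and each of the other windows held 1. Counted from the start site, the first match began at -232 in Pglyrp1, -87 in Tnfaip2, -187 in Saa3, -110 in Neurl3 and -53 in Tnip3. A window was given for 252 of 348 higher DEGs with a unique symbol, and 39 of them (15.5%) held the motif, against 24 of 362 lower DEGs (6.63%), 882 of 12050 genes tested (7.32%) and 1913 of all 32851 windows (5.82%). Among higher DEGs with a log2 fold change over 1, 26 of 106 (24.5%) held it, and the C/EBP-type, AP-1 and STAT-type motifs below were in 21.7, 16 and 14.2% of the same genes. The C/EBP-type motif TTGCNNAA was in 15.9% of higher DEGs, 13% of lower DEGs and 10.3% of genes tested. The STAT-type motif TTCNNNGAA was in 11.5%, 6.91% and 8.25%. The AP-1 motif TGANTCA was in 11.1%, 12.7% and 6.9%. All windows held these 3 motifs in 10.8, 8.3 and 7.81%. Each motif was searched for on its own, so matches may overlap. The shares are a description of these windows and were not tested, and a match does not show that a factor binds there.

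Among secreted signals, Csf3, the granulocyte colony-stimulating factor that drives neutrophil production, was the most strongly raised cytokine of the list. It was measured at 0.133, 0.315, 0.645 and 0 CPM with vehicle and 18.2, 20.9, 8.16 and 4.22 CPM with EC, a log2 fold change of 5.27 ± 0.38 (SE), adjusted p = 1.1e-07. All EC values lay above all vehicle values, and the EC values of mice 3 and 4 were the lowest. Ccl20, the ligand of Ccr6 on lymphocytes and dendritic cells, had 7.93, 9.68, 12.2 and 19.6 CPM with vehicle and 42.7, 49.3, 32.1 and 46.96 CPM with EC, a log2 fold change of 1.83 ± 0.17 (SE), adjusted p = 3.2e-06. Ccl28, a mucosal chemokine, had 0.20, 0.472, 0.298 and 0.0805 CPM and 3.35, 2.92, 2.2 and 1.01 CPM, a log2 fold change of 3.14 ± 0.46 (SE), adjusted p = 3.6e-04. Among CXC chemokines, 6 of 11 tested genes were higher and 1 lower, and among CC chemokines 3 of 10 were higher. Pf4, a platelet chemokine, belonged to the former with 2.93 (adjusted p = 2.5e-04). Cxcl15, a lung chemokine, rose by 0.48 (adjusted p = 0.00135), a call lost without the block and with all 15 epithelial libraries in the model. Cxcl12 was the lower one at -0.57 (adjusted p = 0.0333), and was not called without mouse 1 or mouse 3, among other settings. After subtraction it was at -0.81 (adjusted p = 0.847), and the fibroblast share alone would give 43.2 CPM with vehicle and 36.1 CPM with EC, above the measured means of 37.8 and 26.5 CPM. Of 22 interleukins and other cytokines, 6 were higher and 1 lower, with 3 and 0 still called after subtraction. Mif, the macrophage migration inhibitory factor, had 0.55 (adjusted p = 8.3e-04). Tnf rose from 0.80, 0.63, 2.68 and 2.33 to 6.56, 6.27, 3.12 and 3.85 CPM with 1.62 (adjusted p = 0.03). This call ended without mouse 1, without mouse 2, without the block, with the stricter filter, with robust dispersion and with subtraction, where it was at 1.78 (adjusted p = 0.22).

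Receptors and sensors of the epithelium also changed. Il13ra2, the decoy receptor that captures IL-13, had 1.87, 0.866, 0.596 and 1.53 CPM with vehicle and 12.9, 11.8, 15.1 and 23.6 CPM with EC, with no overlap and a log2 fold change of 3.72 ± 0.24 (SE), adjusted p = 3.1e-08. Tnfrsf11b, which encodes the soluble decoy receptor osteoprotegerin, went from 2.13, 1.89, 1.69 and 2.09 to 9.78, 9.33, 12.7 and 11.1 CPM, a log2 fold change of 2.46 ± 0.20 (SE), adjusted p = 4.7e-07. The fibroblast share gave 1.78 of its 1.95 CPM with vehicle, and after subtraction the log2 fold change was 5.98. Nod2, a sensor of bacterial cell wall fragments, had 0.333, 0.866, 1.14 and 0.242 CPM and 6.09, 7.26, 4.17 and 1.28 CPM, a log2 fold change of 2.79 ± 0.36 (SE), adjusted p = 1.1e-04, with the EC value of mouse 4 close to the highest vehicle value. Cd14, the co-receptor for lipopolysaccharide, rose at a log2 fold change of 0.77 (adjusted p = 1.5e-05). In the list of pattern recognition and inflammasome genes, 4 of 23 tested genes were higher and 0 lower, and 2 were still called after subtraction. Of 34 genes for cytokine receptors and JAK-STAT3 signalling, 5 were higher and 1 lower, and the median log2 fold change was 0.016. Apart from Il13ra2, the higher members were Osmr, the receptor subunit for oncostatin M, at 0.51 (adjusted p = 0.0167), Il1rn, the natural antagonist of IL-1, at 0.51 (adjusted p = 0.0485), Il4ra at 0.46 (adjusted p = 0.00394) and Lifr at 0.44 (adjusted p = 0.0307), and the lower member was Il17re, a receptor subunit for IL-17C, at -0.53 (adjusted p = 0.0127). Each of these 5 calls ended without mouse 1 and without mouse 3, and those of Osmr, Il1rn, Lifr and Il17re also with subtraction, at 0.48 (adjusted p = 0.478), 0.38 (adjusted p = 0.505), 0.42 (adjusted p = 0.259) and -0.49 (adjusted p = 0.148).

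**Figure D2:**
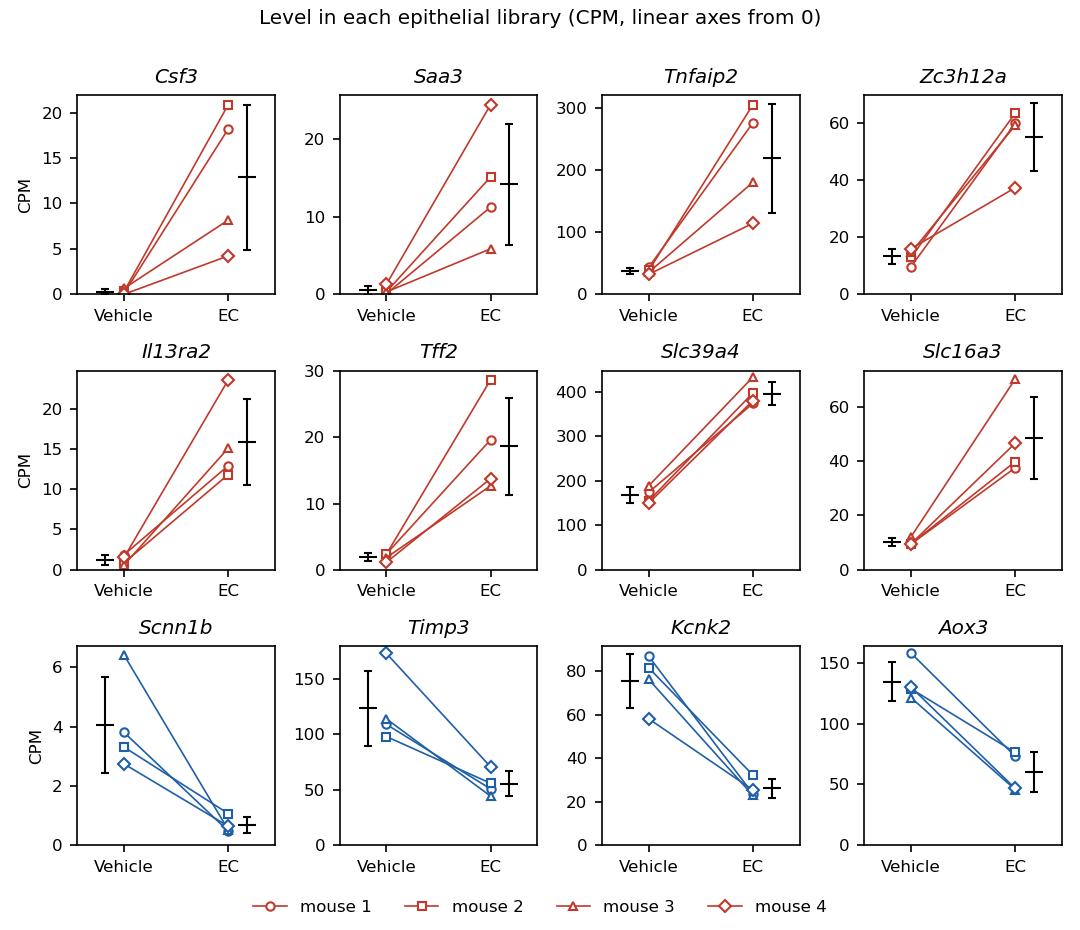
Level (CPM, linear axes from 0) of 12 genes in each of the 8 epithelial libraries, with the libraries of 1 mouse joined by a line and the mean ± SD of each group (n = 4) in black beside the points. In all 12 genes the EC and vehicle values do not overlap, with Csf3 between 4.22 and 20.9 CPM in EC against at most 0.645 in vehicle and Timp3 between 44.3 and 70.7 CPM in EC against at least 97.9 in vehicle. The 12 genes were chosen among the DEGs, so the lack of overlap is no further evidence.

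Of 25 tested genes for secreted antimicrobial and acute phase proteins, 14 were higher, the largest share of higher genes among the lists, and 1 was lower, and 12 of the higher ones were still called after subtraction. Earlier results of these data were known when the list was written, so its count is not independent evidence. Saa3, a serum amyloid A protein of the acute phase, had 0.0667, 0.315, 0.298 and 1.29 CPM with vehicle and 11.2, 15.1, 5.84 and 24.4 CPM with EC, a log2 fold change of 4.88 ± 0.30 (SE), adjusted p = 1.3e-08. Saa3 reached 119 CPM in the EC fibroblast libraries, so that the fibroblast share alone would give 16.99 CPM, above the measured EC mean of 14.1 CPM. It was still called after subtraction (adjusted p = 0.00275), and the source of its reads cannot be told apart here. Pglyrp1, a peptidoglycan-binding protein that kills bacteria, had 44.2, 56.3, 45.4 and 52.1 CPM and 224, 235, 196 and 263 CPM, a log2 fold change of 2.21 ± 0.09 (SE), adjusted p = 1.2e-10. Ltf, the iron-binding protein lactoferrin, had 917, 969.9, 561 and 449 CPM and 2484, 2770.4, 1647 and 1791 CPM, a log2 fold change of 1.62 ± 0.10 (SE), adjusted p = 1.2e-08. The trefoil factor Tff2, a small protein secreted with mucus, had 2.4, 2.36, 1.84 and 1.13 CPM and 19.6, 28.7, 12.7 and 13.8 CPM, a log2 fold change of 3.22 ± 0.19 (SE), adjusted p = 7.3e-09, and Tff1 had a log2 fold change of 1.72 (adjusted p = 2.4e-06). In none of these 5 genes did EC and vehicle values overlap. The lysozyme gene Lyz1, which shares sequence with its neighbour Lyz2, had 1.53 (adjusted p = 2.7e-06), and Lrg1, an acute phase glycoprotein, had 2.65 (adjusted p = 2.8e-06). Reg3g, a lectin that binds Gram-positive bacteria, varied widely between mice and overlapped between the groups, at 108, 178, 82.9 and 32.6 and 241, 409.7, 116 and 82.3 CPM. It was higher in each mouse, with 1.04 (adjusted p = 2.8e-05), and this call ended without the block. The exception was Bpifa1, an airway surfactant protein with antimicrobial activity, which fell from 356, 520.1, 337 and 204 CPM to 167, 273, 134 and 111 CPM, a log2 fold change of -1.06 ± 0.09 (SE), adjusted p = 1.5e-06, and this call was also lost without the block.

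Of 40 genes for mucins and glycosylation, 8 were higher and 0 lower, with 4 still called after subtraction. Itln1, the lectin intelectin, had 0.267, 0.551, 0.546 and 0.242 CPM with vehicle and 3.28, 5.55, 3.65 and 1.38 CPM with EC, a log2 fold change of 3.05 ± 0.37 (SE), adjusted p = 5.2e-05. Muc20, a membrane mucin, rose by 0.97 (adjusted p = 3.5e-04), a call that ended without the block. Of 48 proteases, 10 were higher and 3 lower, but 2 and 2 remained after subtraction. The secreted serine protease gene Klk10 had 33.2, 34.6, 25.3 and 24.8 CPM and 105, 106, 65.1 and 52.3 CPM, a log2 fold change of 1.44 ± 0.11 (SE), adjusted p = 2.7e-07, and Plat, tissue plasminogen activator, had 1.35 (adjusted p = 1.1e-05). The matrix metalloproteinase gene Mmp3 had 1.67, 1.57, 1.24 and 1.37 and 4.65, 5.84, 2.14 and 7.89 CPM in the epithelial libraries and 20.6 and 34.8 CPM on average in vehicle and EC fibroblast libraries. It was higher with 1.67 (adjusted p = 0.00182), and was not called after subtraction, at 2.21 (adjusted p = 0.243). Has3, a synthase of hyaluronan, had 3.4, 7.4, 6.2 and 5.55 and 21.1, 25.1, 28.2 and 15.96 CPM, a log2 fold change of 2.02 ± 0.17 (SE), adjusted p = 6.8e-07. Dpp4, a membrane peptidase that trims chemokines, fell with -1.12 (adjusted p = 1.9e-04).

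Of 19 complement genes tested, 6 were higher and 1 lower, and 1 and 1 were still called after subtraction. C3, the central component, had 317, 271, 268 and 258 CPM with vehicle and 633, 679, 427 and 449 CPM with EC, a log2 fold change of 0.95 ± 0.10 (SE), adjusted p = 1.5e-05. Its mean was 1034 CPM with vehicle and 2328 CPM in EC fibroblast libraries, which at the estimated share corresponds to 61.4 and 261 CPM, and after subtraction it was not called, at 0.47 (adjusted p = 0.226). C1ra and C1s1, proteases of the first component, had 1.05 (adjusted p = 0.00101) and 0.98 (adjusted p = 4.2e-04). Their estimated fibroblast parts in EC were 20.7 and 71.2 CPM, above the measured means of 18.5 and 55.8 CPM. Neither was called after subtraction, at -0.29 (adjusted p = 0.954) and -0.82 (adjusted p = 0.806), and C1s1 was not called without the block. Cfb, factor B of the alternative pathway, had 0, 0.236, 0 and 0 CPM with vehicle and 1.44, 2.78, 0.579 and 0.642 CPM with EC, with 3 vehicle libraries at 0 reads, and no fold is given. Its level in fibroblast libraries was 0 in vehicle and 0.273 CPM in EC, and it was still called after subtraction (adjusted p = 0.0369). The lower gene Hc, which encodes complement C5, fell with -2.02 (adjusted p = 2.4e-07).

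Of 26 tested genes for metal handling, 8 were higher and 0 lower, and 5 of them were still called after subtraction. Slc39a4, the zinc importer ZIP4, had 174, 155, 189 and 149.8 CPM with vehicle and 374, 397, 433 and 380.0 CPM with EC, a log2 fold change of 1.25 ± 0.09 (SE), adjusted p = 7.0e-08. The EC values lay close together and all above the vehicle values. Cp, the copper-carrying ferroxidase ceruloplasmin, was higher with 1.45 (adjusted p = 7.3e-09), while Atp7b, a copper-exporting ATPase that was not on the list, was lower at a log2 fold change of -1.03 (adjusted p = 3.7e-05). For oxidant production and defence, 6 of 32 tested genes were higher and 2 lower, with 3 and 1 still called after subtraction. Noxo1, the organiser subunit of NADPH oxidase 1, had 6.67, 5.35, 5.91 and 4.51 CPM and 31.4, 30.5, 22.9 and 29.7 CPM, a log2 fold change of 2.33 ± 0.15 (SE), adjusted p = 1.8e-08. Vnn1, a pantetheinase whose product cysteamine enters the thiol pool, had 39.7, 35.2, 36.2 and 54.6 CPM and 111, 89.6, 109 and 120.4 CPM, a log2 fold change of 1.39 ± 0.10 (SE), adjusted p = 1.1e-07. It has a close relative in Vnn3, and the handling of reads shared by such genes is not described. Slc7a11, the cystine importer for glutathione synthesis, had 191, 185, 168 and 295 CPM and 351, 342, 358 and 329 CPM, a log2 fold change of 0.76 ± 0.12 (SE), adjusted p = 8.4e-04, and its vehicle value in mouse 4 stood above the other 3. Catalase (Cat), which breaks down hydrogen peroxide, was lower, at 133, 123, 128 and 145 CPM with vehicle and 75.6, 85.4, 77.2 and 87.6 CPM with EC, a log2 fold change of -0.70 ± 0.09 (SE), adjusted p = 9.8e-05.

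Of 36 tested genes of glycolysis and the hypoxia response, 18 were higher and 2 lower, and the median log2 fold change was 0.40. After subtraction 7 higher and 0 lower genes were called. Slc16a3, the lactate exporter MCT4, had the largest change of the list, from 9.47, 9.52, 12.2 and 9.58 CPM in vehicle to 37.5, 39.7, 70.1 and 46.5 CPM in EC libraries, a log2 fold change of 2.22 ± 0.12 (SE), adjusted p = 4.6e-09. Egln3, an oxygen-dependent hydroxylase that marks HIF for degradation, had 9.0, 8.42, 8.93 and 7.89 CPM and 21.3, 22.4, 20.7 and 23.2 CPM, a log2 fold change of 1.35 ± 0.13 (SE), adjusted p = 4.4e-06. The mitochondrial adenylate kinase gene Ak4, which was not on the list, had 1.27 (adjusted p = 1.7e-06). Ldha, the lactate dehydrogenase subunit, had 2659, 2777, 2782 and 2712 CPM with vehicle and 3654, 3608, 3705 and 5031 CPM with EC, a log2 fold change of 0.53 ± 0.09 (SE), adjusted p = 0.00188, with the highest value in mouse 4. Pdk1, a kinase that shuts pyruvate out of mitochondria, had 0.77 (adjusted p = 6.6e-05), the glycolytic enzymes Pgk1 and Pfkl had 0.62 (adjusted p = 3.0e-04) and 0.55 (adjusted p = 8.0e-04), and the transcription factor Hif1a had 0.62 (adjusted p = 3.0e-04). Bnip3, a mitophagy receptor, had 1.01 (adjusted p = 6.2e-05), but its level in fibroblast libraries was 99.3 CPM with vehicle and 182 CPM in EC and the call ended with subtraction, at 0.41 (adjusted p = 0.851), and without the block. The lower members were Epas1, which encodes HIF-2α, with -0.44 (adjusted p = 0.048), and the glucose transporter gene Slc2a3 with -0.70 (adjusted p = 0.0234), and both calls ended without mouse 3 and with subtraction, at -0.42 (adjusted p = 0.381) and -0.64 (adjusted p = 0.309).

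**Figure D3:**
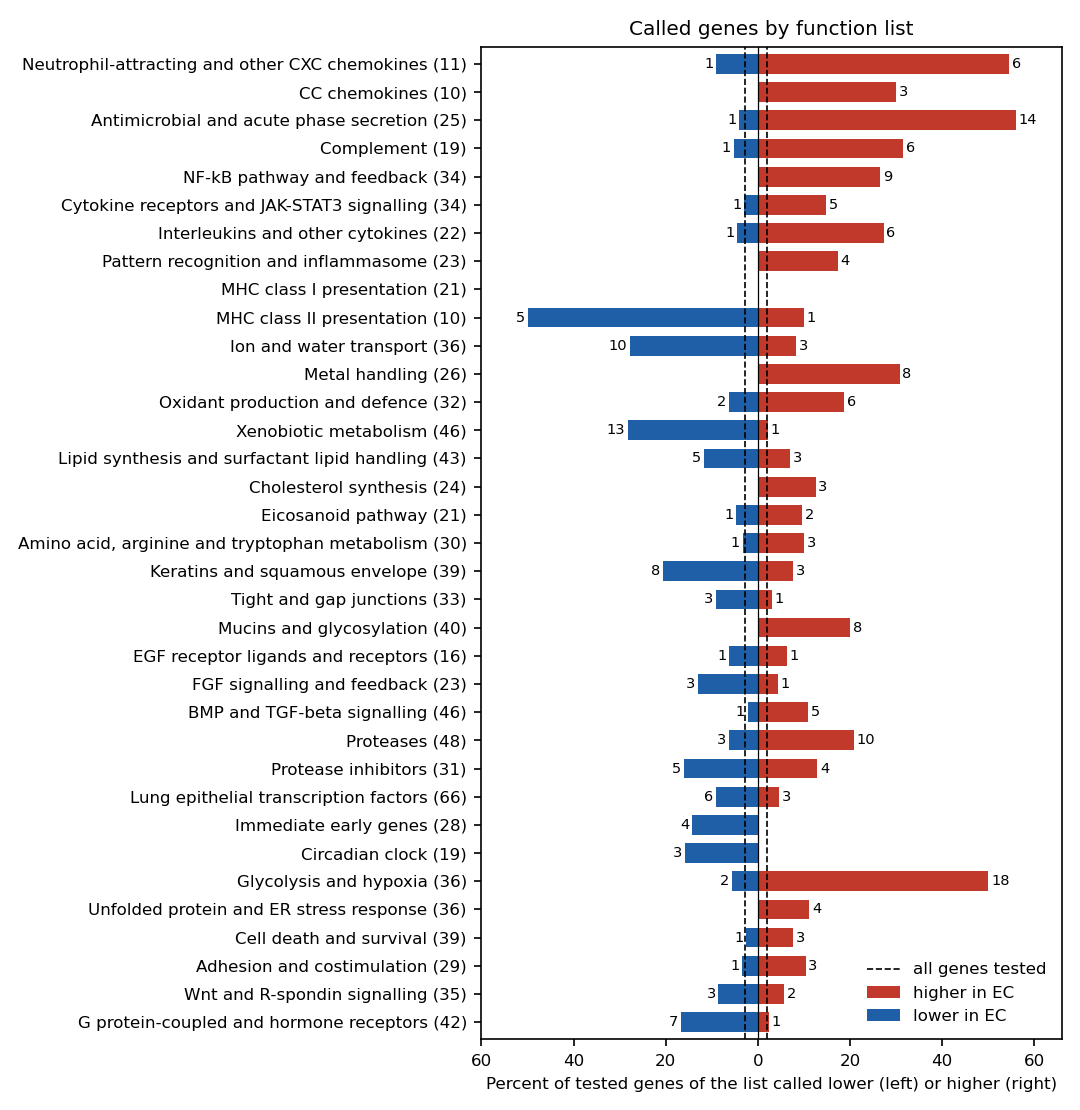
For each of the 35 function lists (tested genes in brackets), the bars give the percent of tested genes called higher in EC (red, right) and lower (blue, left), with the number of genes at the bar end. Dashed lines mark the 1.96% higher and 2.7% lower of all 17789 genes tested, and the longest bars on the right are the higher genes of antimicrobial secretion (14 of 25), CXC chemokines (6 of 11) and glycolysis and hypoxia (18 of 36).

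Of 36 tested genes for ion and water transport, 10 were lower and 3 higher, and 4 and 3 were still called after subtraction. All 3 genes for subunits of the epithelial sodium channel ENaC, which absorbs airway and alveolar liquid, fell. Scnn1a, the α subunit, had 144, 134, 196 and 159 CPM with vehicle and 87.3, 80.5, 122 and 69.7 CPM with EC, a log2 fold change of -0.83 ± 0.10 (SE), adjusted p = 5.2e-05. Scnn1b, the β subunit, had 3.8, 3.31, 6.4 and 2.74 CPM and 0.479, 1.07, 0.521 and 0.642 CPM, a log2 fold change of -2.58 ± 0.36 (SE), adjusted p = 2.2e-04. Scnn1g, the γ subunit, had 10.5, 7.87, 14.7 and 12.2 CPM and 3.62, 5.06, 4.98 and 6.24 CPM, a log2 fold change of -1.19 ± 0.18 (SE), adjusted p = 6.2e-04. In each subunit the groups did not overlap. Kcnk2, the potassium channel TREK-1, was not on the list and fell, at 86.7, 81.4, 76.1 and 58.04 CPM with vehicle and 23.7, 32.3, 22.9 and 25.4 CPM with EC, a log2 fold change of -1.54 ± 0.12 (SE), adjusted p = 2.7e-07. The potassium channel gene Kcnj15 had -0.96 (adjusted p = 6.0e-05). Of the higher genes of the list, Slc26a4, the anion exchanger pendrin, had 5.07, 4.09, 3.87 and 5.88 CPM and 28.4, 38.9, 20.5 and 31.2 CPM, a log2 fold change of 2.62 ± 0.16 (SE), adjusted p = 1.1e-08, and Atp12a, a proton pump that acidifies airway liquid, had 0.20, 1.1, 0.546 and 1.29 CPM and 2.94, 5.48, 4.05 and 2.75 CPM, a log2 fold change of 2.38 ± 0.37 (SE), adjusted p = 7.6e-04. The third was Slc9a4, a sodium-proton exchanger, with 0.47 (adjusted p = 0.0105), which was not called without mouse 1, without mouse 3 or without the block. The organic anion transporter gene Slco1a5, which was not on the list, had 7.87, 8.18, 4.86 and 5.07 CPM and 29.1, 34.9, 19.96 and 20.3 CPM, a log2 fold change of 2.00 ± 0.13 (SE), adjusted p = 2.6e-08.

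In the list of xenobiotic metabolism, 13 of 46 tested genes were lower and 1 higher, and 5 of the lower ones were still called after subtraction. Aox3, an aldehyde oxidase, had 158, 128, 121 and 129.8 CPM with vehicle and 73.1, 76.3, 45.8 and 46.7 CPM with EC, a log2 fold change of -1.18 ± 0.11 (SE), adjusted p = 4.1e-06. The glutathione transferase gene Gstm1 had 80.5, 93.1, 83.1 and 74.1 CPM and 49.3, 56.8, 37.2 and 44.8 CPM, a log2 fold change of -0.83 ± 0.10 (SE), adjusted p = 7.5e-05. The cytochrome P450 gene Cyp2s1 had -0.91 (adjusted p = 8.2e-04), the alcohol dehydrogenase gene Adh7 had -0.75 (adjusted p = 2.4e-04), and the carboxylesterase gene Ces1g had -2.41 (adjusted p = 2.0e-07). Cyp1a1, a target of the aryl hydrocarbon receptor, had 16.5, 10.2, 3.18 and 5.72 CPM with vehicle and 9.3, 5.77, 1.27 and 2.57 CPM with EC. Its groups overlapped, and it was lower in each mouse with -0.98 (adjusted p = 0.003), a call that ended without the block and with subtraction, where it was at -0.90 (adjusted p = 0.0744). Outside the list, Akr1c14, an aldo-keto reductase of steroids, had 8.8, 8.58, 6.9 and 12.96 CPM and 2.73, 1.99, 1.27 and 3.67 CPM, a log2 fold change of -1.99 ± 0.20 (SE), adjusted p = 7.2e-06, and the monoamine oxidase gene Maob had -1.04 (adjusted p = 1.7e-05). The higher gene was Cbr2, a carbonyl reductase of lung cells, with 0.63 (adjusted p = 0.0109), a call that ended without the block, with robust dispersion and with subtraction, at 0.73 (adjusted p = 0.113).

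Of 43 genes for lipid synthesis and surfactant lipid handling, 3 were higher and 5 lower, with 2 and 2 still called after subtraction. Lpcat1, which makes the dipalmitoyl phosphatidylcholine of surfactant, had 362, 388, 429 and 406 CPM with vehicle and 236, 276, 248 and 259.6 CPM with EC, a log2 fold change of -0.63 ± 0.09 (SE), adjusted p = 1.6e-04. Pcyt1a, the enzyme that limits phosphatidylcholine synthesis, had 112, 108, 109 and 119 CPM and 78.3, 82.7, 78.1 and 81.1 CPM, a log2 fold change of -0.48 ± 0.09 (SE), adjusted p = 0.00278. Fabp5, a fatty acid-binding protein, was higher in each mouse with 0.86 (adjusted p = 1.1e-05), and its call ended without the block. The lipid-transfer gene Sec14l3 had 68.5, 54.7, 63.5 and 57.4 CPM and 20.4, 21.00, 10.3 and 16.7 CPM, a log2 fold change of -1.88 ± 0.15 (SE), adjusted p = 5.7e-07, and its relative Sec14l4 had -1.44 (adjusted p = 2.8e-05). Plb1, a phospholipase, and Pitpnm3, of the phosphatidylinositol transfer family, had -1.47 (adjusted p = 9.0e-05) and -1.19 (adjusted p = 9.3e-05). Of 24 cholesterol synthesis genes, 3 were higher and 0 lower, and 1 was still called after subtraction. Cyp51, an enzyme of the pathway, was one of them with 0.41 (adjusted p = 0.0098), a call that ended without mouse 3, without the block and with subtraction, at 0.46 (adjusted p = 0.0567). Slco2a1, the prostaglandin transporter, fell with -0.89 (adjusted p = 8.5e-05).

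Several genes of the matrix and the cell envelope were lower. Col4a3 and Col4a4 encode chains of the type IV collagen found in alveolar basement membrane. Col4a3 had 8.6, 6.06, 12.5 and 11.1 CPM with vehicle and 1.37, 2.85, 2.03 and 2.48 CPM with EC, a log2 fold change of -2.13 ± 0.24 (SE), adjusted p = 3.3e-05, and Col4a4 had 16.00, 9.36, 14.4 and 13.3 CPM and 4.31, 3.99, 3.7 and 3.3 CPM, a log2 fold change of -1.78 ± 0.18 (SE), adjusted p = 5.8e-06. Timp3, an inhibitor of matrix proteases, had 109, 97.9, 114 and 173 CPM and 50.8, 55.9, 44.3 and 70.7 CPM, a log2 fold change of -1.14 ± 0.10 (SE), adjusted p = 2.1e-06. Its mean in fibroblast libraries also differed, at 630.0 CPM with vehicle and 294 CPM in EC, and after subtraction its log2 fold change was -1.88 (adjusted p = 7.5e-05). Of 31 protease inhibitors, 4 were higher and 5 lower, and 1 and 4 were still called after subtraction. In the list of keratins and squamous envelope genes, 8 of 39 tested genes were lower and 3 higher, with 3 and 2 still called after subtraction. Sprr1a, a protein of the cornified envelope, had 73.6, 63.03, 86.9 and 67.5 CPM and 28.2, 32.1, 38.5 and 33.02 CPM, a log2 fold change of -1.14 ± 0.10 (SE), adjusted p = 1.8e-06. Krt15, a keratin of basal cells, had 82.9, 174, 155 and 10.1 CPM and 33.6, 55.2, 38.8 and 10.9 CPM, so that mouse 4 had a low level in both groups and no fall, and its call at -1.35 (adjusted p = 5.4e-04) ended with DESeq2, with robust dispersion, without the block and with subtraction, at -1.23 (adjusted p = 0.0799). The tight junction gene Tjp3 was higher with 0.76 (adjusted p = 3.5e-05), while 3 of 33 junction genes were lower, 0 of them after subtraction.

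Some genes of growth and progenitor signalling were called. Lgr5 and Lgr6, related receptors for R-spondins that amplify Wnt signals, moved in opposite directions. Lgr5 had 4.33, 4.25, 5.91 and 7.41 CPM with vehicle and 16.3, 12.03, 12.2 and 12.1 CPM with EC, a log2 fold change of 1.28 ± 0.19 (SE), adjusted p = 3.6e-04. Lgr6 had 11.2, 13.1, 15.7 and 5.55 CPM and 3.56, 4.06, 3.76 and 1.56 CPM, a log2 fold change of -1.81 ± 0.17 (SE), adjusted p = 4.3e-06. Of 35 Wnt and R-spondin genes, 2 were higher and 3 lower (5.71 and 8.57%, against 1.96 and 2.7% of all genes tested). After subtraction 1 and 1 were still called. Of 23 FGF genes 1 was higher and 3 were lower (4.35 and 13.0%), and 0 and 2 of them were still called after subtraction. Fgfr3, an FGF receptor, had 91.8, 94.4, 110.0 and 83.2 CPM and 62.4, 52.9, 64.2 and 43.7 CPM, a log2 fold change of -0.77 ± 0.10 (SE), adjusted p = 7.1e-05, and its ligand Fgf1 had 30.6, 32.1, 28.7 and 30.6 CPM and 18.6, 16.6, 14.00 and 15.7 CPM, a log2 fold change of -0.92 ± 0.11 (SE), adjusted p = 7.1e-05. The higher FGF gene was Fgf7, the keratinocyte growth factor, whose 9.8, 5.74, 4.27 and 4.67 CPM with vehicle and 20.1, 23.7, 9.2 and 20.5 CPM with EC stand beside 5.37 and 15.98 CPM given by the fibroblast share, with 1.56 (adjusted p = 5.4e-05). It was not called after subtraction, though its fold change was larger there, at 2.63 (adjusted p = 0.303). Ereg, an EGF receptor ligand, had 69.2, 57.8, 66.1 and 88.2 CPM and 105, 122, 139 and 132 CPM, a log2 fold change of 0.83 ± 0.11 (SE), adjusted p = 9.4e-05. Among 46 BMP and TGF-β genes, 5 were higher and 1 lower (10.9 and 2.17%), and after subtraction 1 and 0 of them were called.

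Of 42 G protein-coupled and hormone receptors, 7 were lower and 1 higher, with 2 and 1 still called after subtraction. P2ry2, a receptor for extracellular ATP and UTP, was the higher one with 34.9, 30.8, 36.5 and 30.03 CPM with vehicle and 65.8, 57.7, 64.9 and 43.2 CPM with EC, a log2 fold change of 0.80 ± 0.10 (SE), adjusted p = 1.1e-04. Enpep, an aminopeptidase that cleaves angiotensin II, fell with -1.15 (adjusted p = 5.3e-05). Of 66 lung epithelial transcription factors, 3 were higher and 6 lower, 1 and 1 of them after subtraction, and Cebpd was the only one of them called in all 14 alternatives. Of 28 immediate early genes, 4 were lower and 0 higher, and 2 were still called after subtraction. Dusp1, a phosphatase that switches off MAP kinases, had 141, 135, 185 and 199 CPM and 117, 97.3, 102 and 121 CPM, a log2 fold change of -0.58 ± 0.10 (SE), adjusted p = 0.00202, with higher vehicle values in mice 3 and 4. Of 19 clock genes, 3 were lower (1 after subtraction), among them Nr1d1, the clock repressor REV-ERBα, with -0.56 (adjusted p = 0.00766), a call that ended without mouse 1, without mouse 3 and without the block. Chia1, an acidic chitinase of the lung, had 29.7, 25.7, 27.8 and 25.8 CPM and 6.97, 8.47, 5.32 and 9.9 CPM, a log2 fold change of -1.86 ± 0.16 (SE), adjusted p = 9.2e-07.

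Of 10 tested genes for antigen presentation on MHC class II, 5 were lower and 1 higher, and the median log2 fold change was -0.86. After subtraction 0 and 0 of these were still called, and without mouse 3 the list had 1 lower and 1 higher gene. H2-Aa, the α chain of I-A, had 6.93, 6.92, 7.15 and 5.39 CPM with vehicle and 0.684, 1.57, 1.5 and 3.85 CPM with EC, a log2 fold change of -1.94 ± 0.33 (SE), adjusted p = 0.00135. H2-Ab1, its β chain, had 9.6, 7.87, 10.3 and 4.91 CPM and 3.01, 4.63, 3.47 and 4.31 CPM, a log2 fold change of -1.08 ± 0.23 (SE), adjusted p = 0.00946, and Cd74, the invariant chain, had 51.5, 48.2, 56.98 and 54.2 CPM and 28.4, 31.4, 19.3 and 51.3 CPM, a log2 fold change of -0.78 ± 0.17 (SE), adjusted p = 0.00961. The falls were smallest in mouse 4, whose EC values of Cd74 and H2-Ab1 lay within or near the vehicle range. H2-Ab1 and Cd74 were not called without mouse 3, and with subtraction none of these 3 was called, at fold changes that were no smaller, -2.31 (adjusted p = 0.195), -1.28 (adjusted p = 0.191) and -0.87 (adjusted p = 0.121). The paper used MHC class II to enrich alveolar type 2 cells, and it reported a reduced signature of these cells with EC. Macrophages and dendritic cells also carry these genes, and the summed leukocyte markers given above were not lower in any EC library than in the vehicle libraries. What type 2 cells and leukocytes contributed to these falls was not tested. Of 21 genes for MHC class I presentation, 0 were higher and 0 lower by edgeR and 0 were called by DESeq2, while 7 had an unadjusted p under 0.05. The median log2 fold change of this list was 0.16.

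Further genes with large changes lay outside the lists. Olfm4, a glycoprotein known from intestinal stem cells and neutrophils, had 0.133, 0.0787, 0.0993 and 0.0805 CPM with vehicle and 3.56, 3.63, 2.2 and 2.11 CPM with EC, a log2 fold change of 4.71 ± 0.49 (SE), adjusted p = 1.1e-05. Mab21l3 had 1.67, 1.97, 1.19 and 1.21 CPM and 13.7, 20.6, 14.8 and 7.43 CPM, a log2 fold change of 3.21 ± 0.20 (SE), adjusted p = 1.8e-08. Lbhd2 had reads in 1 of 4 vehicle libraries, at 0.0124 CPM on average, and 1.23, 1.14, 1.45 and 0.734 CPM in EC (adjusted p = 8.0e-04). In all 3 genes every EC value lay above every vehicle value. Cckar, the receptor of the gut hormone cholecystokinin, belonged to the receptor list and fell from 23.5, 29.1, 23.97 and 26.3 CPM to 4.1, 6.84, 3.7 and 3.48 CPM, a log2 fold change of -2.53 ± 0.15 (SE), adjusted p = 1.4e-08. Ppp2r2b, a regulatory subunit of protein phosphatase 2A, had 3.53, 4.88, 5.91 and 7.25 CPM and 0.957, 0.783, 1.04 and 0.825 CPM, a log2 fold change of -2.52 ± 0.28 (SE), adjusted p = 2.3e-05. Psca, a membrane protein of the Ly6 family, had 12.3, 9.29, 13.5 and 12.96 CPM and 3.83, 3.42, 7.06 and 4.77 CPM, a log2 fold change of -1.35 ± 0.17 (SE), adjusted p = 8.6e-05. Its relative Ly6g6c, which belonged to the list of keratins and squamous envelope genes, had -1.34 (adjusted p = 4.1e-05). The imprinted gene Peg10 had 12.3, 13.6, 17.2 and 13.7 CPM and 5.2, 6.19, 5.5 and 4.4 CPM, a log2 fold change of -1.41 ± 0.16 (SE), adjusted p = 2.3e-05. Limch1, which acts on non-muscle myosin, and Ppp1r14c, an inhibitor of protein phosphatase 1, had -1.09 (adjusted p = 1.3e-05) and -1.07 (adjusted p = 7.1e-05), and Lgi3 and Mettl7a1 had -1.29 (adjusted p = 1.8e-05) and -1.19 (adjusted p = 1.5e-06). The kinase gene Bmx had 1.6, 2.28, 1.79 and 1.37 CPM and 0.547, 0.214, 0.347 and 0.183 CPM and was lower with -2.41 (adjusted p = 0.00585), a call that ended with subtraction, at -2.35 (adjusted p = 0.0778).

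Of the tested genes of the stress, survival and adhesion lists, 11.1, 7.69 and 10.3% were higher, against 1.96% of all genes tested. Lower were 0, 2.56 and 3.45%, against 2.7%. None of these calls held after subtraction. Of 36 genes of the unfolded protein response, 4 were higher and 0 lower, with the largest change in Manf, a secreted stress protein, at 0.41 (adjusted p = 0.0351), a call that ended without mouse 1 or mouse 3, among other settings, and with subtraction, at 0.44 (adjusted p = 0.208). Of 39 genes of cell death and survival, 3 were higher and 1 lower, and of 29 genes of adhesion and costimulation, 3 were higher and 1 lower. Of 30 genes of amino acid metabolism, 3 were higher and 1 lower (1 and 0 after subtraction), and of 21 genes of the eicosanoid pathway, 2 were higher and 1 lower (0 and 1 after subtraction). Of 16 genes for EGF receptors and their ligands, 1 was higher and 1 lower (1 and 0 after subtraction).

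**Figure D4:**
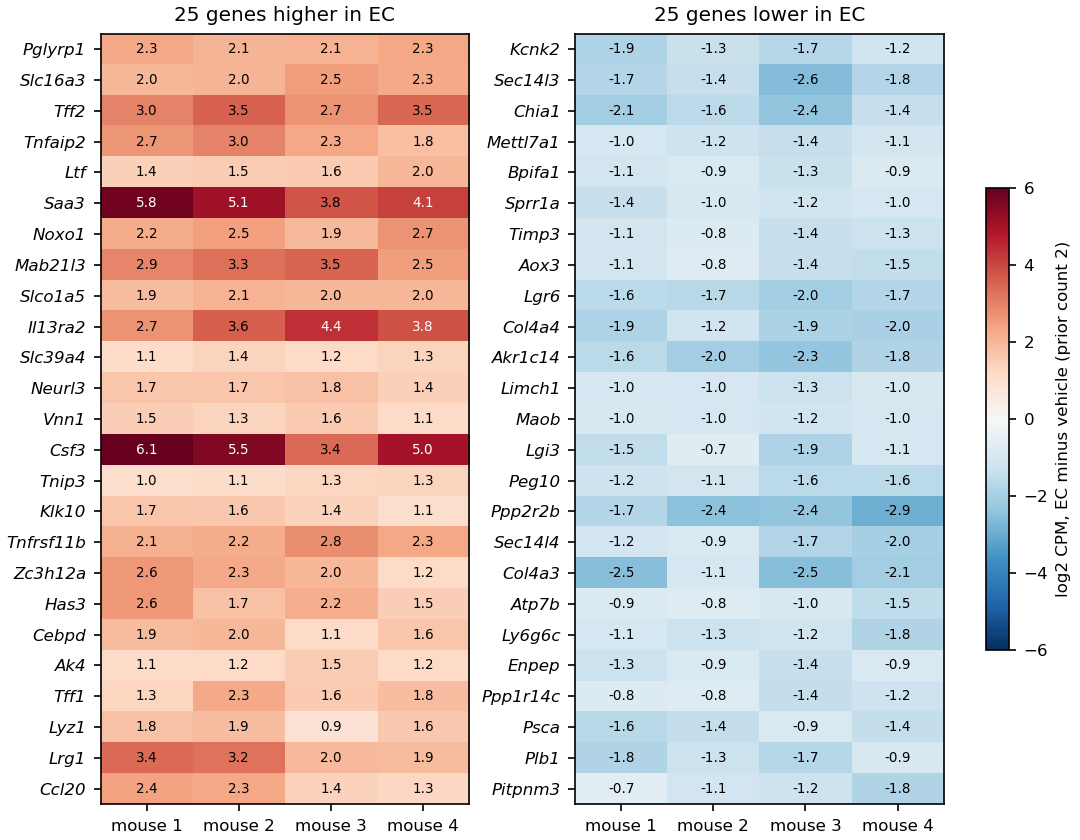
Log2 CPM difference (EC minus vehicle, prior count 2) in each of 4 mice for the 25 higher and 25 lower DEGs with the smallest adjusted p among those with an absolute log2 fold change over 1, the same direction in 4 of 4 mice and a mean of at least 1 CPM, leaving out genes that the study labels in its figures. The direction in each mouse was thus part of the choice, and the plot shows how far the size of each difference varied between mice.

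The response of the epithelial fraction was then set against that of the fibroblast fraction of the same cultures, for which 4 EC and 3 vehicle libraries were analysed. The difference of responses passed the threshold for 920 of 18199 genes (5.06%), of which 264 were higher and 656 lower in epithelial cells. The count was 498 without mouse 2, 418 without mouse 3 and 568 without mouse 4. Without the mouse as a block it was 4, which held Pdzrn3, Tnfaip2 and Tnfrsf11b and none of the other genes named in this comparison. Of the 830 DEGs, 226 passed it. Among genes with a greater response in epithelial cells, Pdzrn3, a ubiquitin ligase gene, had 4.4, 4.88, 3.52 and 1.85 CPM with vehicle and 71.9, 72.5, 53.5 and 36.9 CPM with EC in epithelial libraries, a log2 fold change of 4.01 against 0.41 in fibroblast libraries (difference 3.61 ± 0.23 SE, adjusted p = 4.6e-07). Tnfaip2 had 2.47 against -0.56 (difference 3.03, adjusted p = 2.5e-05), and Tnfrsf11b had 2.46 against -0.61 (difference 3.08, adjusted p = 7.3e-06). Steap4, a metalloreductase, had 3.22 against 1.62 (adjusted p of the difference 1.0e-03). Genes with a smaller measured response in epithelial than in fibroblast libraries included higher DEGs, such as Tnip3 (difference -1.25, adjusted p = 5.1e-04), Slc39a4 (-1.11, adjusted p = 9.2e-04) and Pglyrp1 (-1.14, adjusted p = 0.00256). Other genes on this side were not called in the epithelial libraries. The keratin gene Krt7 had 6780.3 CPM with vehicle and 6331 CPM in EC epithelial libraries on average, with a log2 fold change of -0.10, but 1110.5 and 2653 CPM in fibroblast libraries (difference -1.54, adjusted p = 2.1e-04). Krt18, Homer2, Foxq1 and Eya2 had the same pattern, with epithelial log2 fold changes between -0.13 and 0.027 and differences between -1.93 and -1.42. Epcam, by which the fractions were parted, had 33.7 CPM with vehicle and 87.0 CPM in EC fibroblast libraries on average (difference -1.18, adjusted p = 7.5e-04). The negative differences, those of Tnip3, Slc39a4 and Pglyrp1 included, move with the summed epithelial marker level of the fibroblast libraries given above. A response of fibroblasts and epithelial RNA in their libraries cannot be told apart here, and the part of that RNA was not tested.

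The estimated fibroblast part was also set beside the higher DEGs one by one. For 58 of the 349 higher DEGs, the rise of the estimated fibroblast part was as large as the whole measured rise, for 110 it was at least 50% of it, and for 96 it was under 10%. Enpp2, the lysophospholipase autotaxin, had 19.5, 13.2, 11.2 and 17.7 CPM with vehicle and 34.3, 33.2, 22.9 and 37.1 CPM with EC in epithelial libraries, while the fibroblast share gave 13.1 and 27.6 CPM. The LPS-binding protein gene Lbp had 23.2, 15.3, 16.7 and 18.5 CPM and 50.5, 56.2, 28.1 and 36.8 CPM against 14.97 and 28.6 CPM from the share. Tnfrsf9, a costimulatory receptor, had means of 12.4 and 43.2 CPM against 12.4 and 62.3 CPM. All 3 were called in the main test (adjusted p = 2.6e-05, 8.1e-05 and 6.7e-06) and were not called after subtraction. Their log2 fold changes of 1.06, 1.18 and 1.70 became 1.98 (adjusted p = 0.628), 2.50 (adjusted p = 0.207) and -0.32 (adjusted p = 0.968), so that those of Enpp2 and Lbp were larger after it. The measured mean of Tnfaip2 was 219 CPM in EC against 30.7 CPM from the share, and that of Slc7a11 was 345 against 17.1 CPM.

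**Figure D5:**
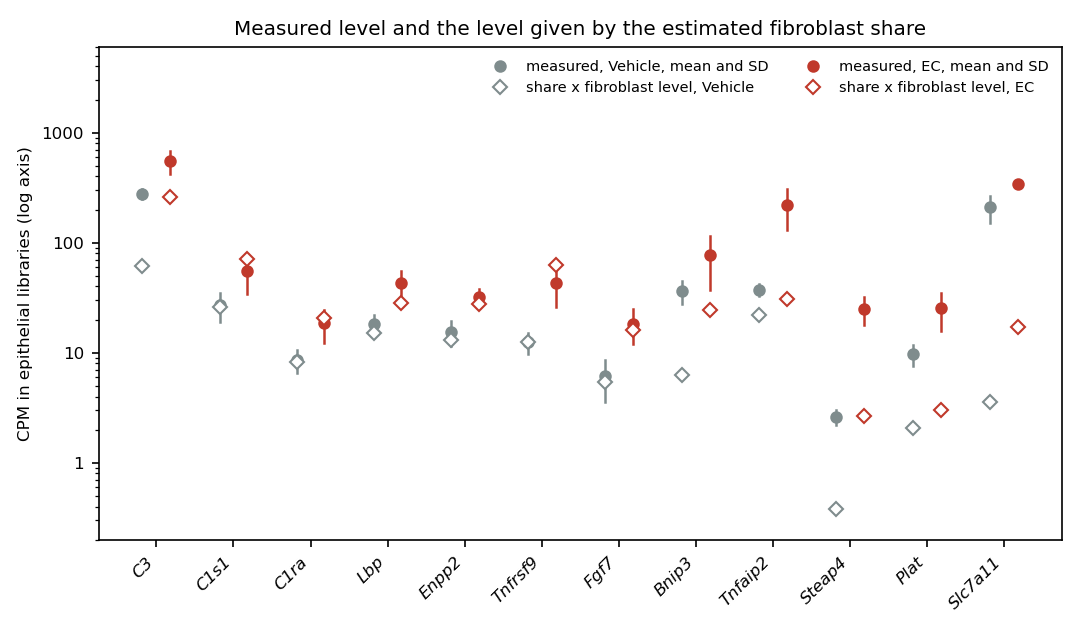
Filled circles give the mean level of 12 higher DEGs in vehicle (grey) and EC (red) epithelial libraries with the SD over 4 mice, and open diamonds give the level that the estimated fibroblast share times the fibroblast library's level would bring (log axis, CPM). For C1s1, C1ra and Tnfrsf9 the EC diamonds lie above the measured means, so the estimate is too high there. For Tnfaip2, Steap4, Plat and Slc7a11 they lie far below, at 30.7 against 219 CPM for Tnfaip2 in EC.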

How the data were processed

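The deposited files hold raw counts per gene, 1 library a file, with 55487 Ensembl genes each. The authors trimmed reads with Trimmomatic 0.30 and compared paired groups with DESeq2 1.34.0. The paper names GRCm38.p6 and the labels GRCm39 as genome, and the aligner, the counter and its strand setting are not given in the sources used here, so values of overlapping, antisense and near-identical genes (Vnn1 and Vnn3, Lyz1 and Lyz2, Ces1, Ly6 and H2 families) are uncertain. The 8 epithelial libraries had total counts of 11562140.0 to 20317181, the 7 fibroblast libraries of 5113828 to 18447405, and these depths set the precision of low genes.

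Genes with a mean of at least 1 read over the 8 libraries were tested with edgeR 4.0.16 (R 4.3.3, TMM scaling, quasi-likelihood test, mouse as a block, Benjamini-Hochberg adjusted p under 0.05). The biological coefficient of variation was 12.2%. Cultures of 1 number came from 1 mouse, and their deviations correlated at 0.225 to 0.431 within mice over 13220 genes, against -0.097 on average between mice. The difference of responses was an interaction term over 15 libraries. CPM are TMM-scaled, and the values given for marker sums are CPM by library total. The fit was tested on simulated data. Alternatives were DESeq2 1.42.0, other scalings and filters, no block, all 15 epithelial libraries, robust dispersion, removal of duplicated symbols, subtraction of the fibroblast share and each mouse left out.

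The comparison, the gene lists and the rule for named genes were chosen with earlier results of these data known, so list counts are no independent evidence. The rule took the 25 genes a direction with the smallest adjusted p (log2 fold change over 1, at least 1 CPM, 4 of 4 mice, not labelled in the study's figures), up to 4 genes a direction in each list, the 10 largest changes a direction, 8 genes a direction of the interaction and the cocktail's receptors. Cyp1a1, Cyp2s1, Hif1a, Il1rn, Ldha, Nfkb1, Pfkl, Pgk1 and Reg3g, and the markers named, were added after their values were seen. Promoter sequences are from RefSeq on GRCm38.p6. In the dose of the cocktail KC follows the methods. Some genes that the rule selected are not reported here.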

Additional observations from a re-analysis of the deposited data

Results flagged for a closer look

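In 304 groups of 4 libraries (151 genes and the fibroblast share), 1 library stood apart from the other 3 in 21 groups. A library stood apart where its gap to the nearest value was large against the range of all 4 (Dixon's test). The cut-off is the one that sets about 1 in 20 groups of normally distributed values apart, and normality was not tested. In vehicle libraries, mouse 4 stood apart in Bnip3 (48.6 CPM, others 31.1 to 32.5), Cyp51 (262 CPM, others 206 to 215), Cxcl15 (2059 CPM, others 1415 to 1455), Hif1a (172 CPM, others 125 to 132), Maob (39.0 CPM, others 27.1 to 28.8) and Ppp1r14c (32.5 CPM, others 28.0 to 28.7), and it was the lowest in H2-Aa (5.39 CPM, others 6.92 to 7.15) and Nfkb1 (94.5 CPM, others 106 to 109). In EC libraries, mouse 4 was the highest in Ldha (5031 CPM, others 3608 to 3705) and Pgk1 (1526 CPM, others 1085 to 1143), and the lowest in Slco2a1 (29.3 CPM, others 37.2 to 38.6), Tjp3 (114 CPM, others 147 to 150.4) and Zc3h12a (37.2 CPM, others 59.0 to 63.3).

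Single libraries of other mice stood apart as well. The vehicle library of mouse 1 had a fibroblast share of 9.61%, against 4.34 to 5.19% in the others, and the only Ptprc reads (0.333 CPM). The vehicle library of mouse 2 had the only Cfb reads (0.236 CPM). The vehicle library of mouse 3 stood apart in Krt7 (8024 CPM, others 6300.4 to 6456), Slc16a3 (12.2 CPM, others 9.47 to 9.58) and Lbhd2, which had no reads in the others (0.0496 CPM). The EC library of mouse 1 was the highest in Lgr5 (16.3 CPM, others 12.0 to 12.2), and that of mouse 3 the lowest in Dpp4 (6.25 CPM, others 10.5 to 10.97).

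The measured EC response differed between epithelial and fibroblast libraries, by a test of the difference itself, in 920 of 18199 genes. They included 226 of the 830 DEGs and other genes named in the text, and 656 of them were lower in epithelial libraries. The 15 given here come from a ranking by adjusted p of that test among genes with at least 10 CPM. Positive and negative differences were ranked apart, with at most 8 genes from each side. Some genes left out therefore had a smaller adjusted p in that test than some listed. Tnip3, which responded less in epithelial libraries, was left out at 5.1e-04, whereas Lbp is listed at 0.00217. Some of the 15, such as Krt7 and Foxq1, were not DEGs. The difference of log2 fold changes was 3.61 for Pdzrn3, 3.08 for Tnfrsf11b, 3.03 for Tnfaip2, 1.69 for Plat, 1.60 for Steap4, 1.31 for Lbp, 1.13 for Enpp2 and 1.08 for Cx3cl1. It was -1.93 for Foxq1, -1.54 for Krt7, -1.48 for Homer2, -1.45 for Eya2, -1.42 for Clu and for Krt18, and -1.36 for Mal. All 15 were called with each mouse left out, and 3 of them without the block. The calls of Lbp and Enpp2 against vehicle ended with subtraction of the fibroblast share, and the difference between fractions was not fitted after subtraction. Epithelial markers in the fibroblast libraries were higher in EC, as given above. The part of epithelial RNA there in the negative differences was not tested.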

How the results depend on the processing

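The 830 DEGs (349 higher, 481 lower, 281 with an absolute log2 fold change over 1) became 308 (144, 164 and 185) without the mouse as a block, in which the pairing of cultures is ignored, and 253 (117, 136 and 145) after subtraction of the fibroblast share. With 1 mouse left out, the counts ran from 531 (without mouse 3) to 1522 (without mouse 4) in all, from 248 to 697 for higher and from 245 to 825 for lower genes. Without the filter on low counts, 1232 genes were called, 741 of them lower. The other settings gave 707 to 836 DEGs, and DESeq2 gave 765, of which 740 were shared. The 920 genes of the interaction became 4 without the block and 418 to 1164 with 1 mouse left out.

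Signs turned in genes that were not called under the setting. After subtraction, the log2 fold change was -0.287 for C1ra, -0.82 for C1s1 and -0.316 for Tnfrsf9. The other turns were in genes not called in the main test. Ptprc was at -0.192 without the block and ran from -1.49 to 0.087 with mice left out. Il6st was at -0.024 with library totals alone, -0.005 without a filter, -0.022 with subtraction and ran from -0.074 to 0.116 with mice left out. Il1r1 was at -0.006 with library totals alone and ran from -0.073 to 0.118 with mice left out, Il1rap from -0.113 to 0.084 and Il6ra from -0.274 to 0.064. With mice left out, Homer2 ran from -0.013 to 0.073, Cx3cl1 from -0.027 to 0.148 and Krt18 from -0.165 to 0.028. The cause of these changes was not tested. No gene named in the text was called with opposite signs. Genes with under 1 CPM rest on few reads, and the share of fibroblast RNA is itself an estimate that differed by marker summary, with a rise of 5.84 percentage points by median ratio (4 of 4 mice) and 2.95 by mean ratio (3 of 4 mice, exact sign-flip p = 0.25).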
